A study of Mus musculus with 11 samples.

Results

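A set of 31 genes of glucose uptake, glycolysis, lactate handling and glycogen turnover was compared across 4 brain regions in sorted mouse astrocytes. The 31 genes were taken as a list of names by their roles in these pathways, out of 24421 gene entries per sample. By role they comprise the glucose transporters Slc2a1 and Slc2a3. The upper steps of glycolysis hold Hk1, Hk2, Gpi1, Pfkm, Pfkl, Pfkp, Pfkfb3, Aldoa, Aldoc and Tpi1, and the lower steps hold Gapdh, Pgk1, Pgam1, Eno1 and Pkm. Lactate is represented by the dehydrogenase subunits Ldha and Ldhb and the transporters Slc16a1, Slc16a3 and Slc16a7. The pyruvate dehydrogenase kinases are Pdk1, Pdk2 and Pdk4, and the glycogen genes are Pygb, Pygm, Gys1, Gbe1, Ugp2 and Ppp1r3c. Of the 31, 29 passed the filter on low counts and were tested among 13875 genes, whereas Eno1 and Slc16a3 did not pass.

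The samples were Aldh1l1-GFP positive astrocytes of C57BL/6 mice aged 16 weeks, and every group carried the same BAC Aldh1l1-eGFP transgene, in which the promoter of an astrocyte folate enzyme drives the green fluorescent protein used for sorting. The untreated samples fall into 4 groups by dissected region, with 3 from the olfactory bulb (OB), 3 from the hippocampus (HC), 2 from the cortex (CX) and 3 from the brainstem (BS). Male and female mice were both used per the methods, without a sex for each sample, and the labels do not say whether samples came from separate or pooled animals. The p-values therefore measure the spread between these samples, which may be technical. Each deposited value is a gene's read count divided by 1 size factor per sample, called the normalized value here.

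Astrocytes take up glucose from capillaries, break it down by glycolysis and release part of it as lactate, which neighbouring neurons can take up through monocarboxylate transporters. They are also the main store of glycogen in the brain. Glycogen synthase builds that store from UDP-glucose, and glycogen phosphorylase, which has separate brain and muscle isoforms, breaks it down.

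All 7 astrocyte markers reported (Aldh1l1, Slc1a2, Slc1a3, Aqp4, Gfap, Gja1 and Sox9) were detected, and their summed normalized value lay between 78363 and 596663 per sample. The astrocyte sum was lowest in BS 1, and Slc1a3, a glutamate transporter, reached 1953 to 6315 in the BS against 14218 to 33551 elsewhere. The 8 oligodendrocyte markers had a summed value of 52348 to 90100 in the BS, against 18640 to 39949 (HC), 19163 to 20560 (CX) and 9528 to 15830 (OB). The 8 choroid plexus markers, led by Ttr, were abundant in the HC (72262 to 146255 in sum) and BS (51687 to 244709) and scarce in the CX (1760 to 5064) and OB (89.2 to 163). Olfactory sensory neuron markers summed to 273 to 595 in the OB and to at most 6.13 elsewhere. The 6 neuroblast markers summed to 545 to 868 in the OB against 117 to 408 elsewhere, and 3 of the 5 tested (Dcx, Dlx1 and Dlx2) were called higher there. The 8 neuron markers summed to between 1239 and 3626 in every sample, but single markers moved, with Nefl, Stmn2 and Snap25 called higher and Slc17a7, Syt1 and Rbfox3 lower in the BS, and Gad1 higher and Nefl lower in the OB. Endothelial markers summed to between 278 and 2678. The ribosomal RNA entry Rn45s took 17.96 to 25.6% of the reads in the CX and BS and 0.966 to 2.93% in the OB and HC. Reads counted on genes ranged from 2830746 to 14151670 per sample, so that 3 reads, taken as the floor, stood for values from 1.10 to 6.31.

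**Figure D1:**
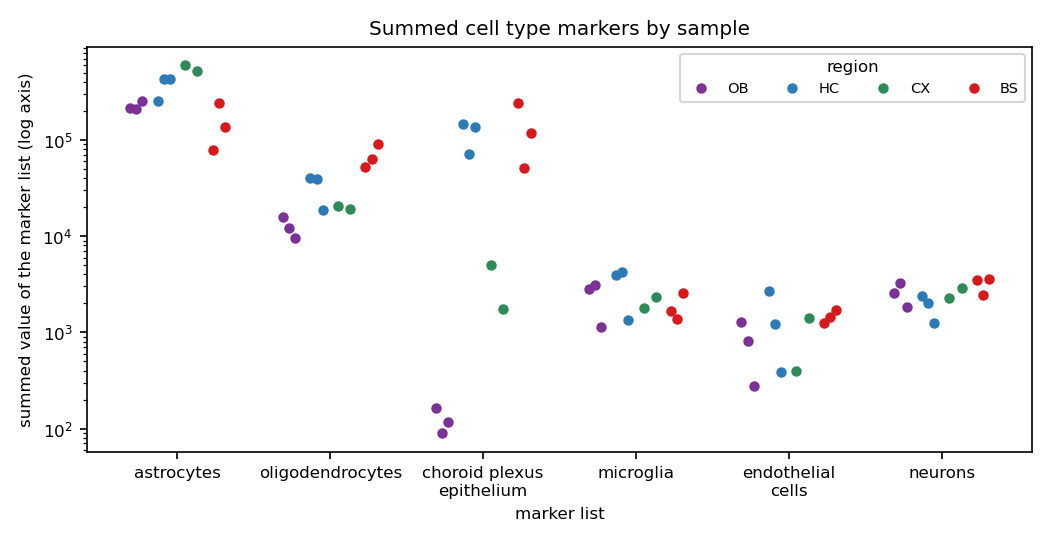
Summed normalized values of 6 cell type marker lists in each of the 11 samples, on a logarithmic axis, with points coloured by region. Astrocyte markers gave the highest sum in every sample except BS 1, where choroid plexus markers summed to 244709, oligodendrocyte markers were highest in the BS at 52348 to 90100, and choroid plexus markers separated the HC and BS from the OB and CX.

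Expression of the whole set was led by the same enzymes in every region. Per kilobase of annotated exon, the mean normalized value over all samples was highest for Aldoc at 8255, the aldolase of astrocytes and some neurons, followed by Gapdh at 4801, Ldhb at 2742 and Pgam1 at 1206. Pygb, the brain isoform of glycogen phosphorylase, reached 865 per kilobase and its muscle counterpart Pygm 260.3. At the other end were Slc2a3, the glucose transporter known from neurons, at 8.04, Hk2 at 4.35 and Slc16a7 at 2.65 per kilobase. Slc16a3, a lactate exporter, had a normalized value of at most 2.499 in any sample from 9 reads in all. Eno1, the enolase of most cells, was listed at 0 to 2.105. Its near-identical copy Eno1b has a row of its own, which was chosen after its values were seen. Eno1b had values of 1800.4, 1759.7 and 2074 for OB 1 to 3, 1099, 1238 and 1357 for HC 1 to 3, 1521 and 1567 for CX 1 and 2 and 1529, 1943 and 1446 for BS 1 to 3, and did not pass the test among regions (adjusted p = 0.0797, limma with Benjamini-Hochberg adjustment). Reads of the pair cannot be told apart.

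Of the 29 genes tested, 10 differed among the 4 regions, namely Pfkfb3, Pfkp, Pgk1, Pkm, Slc16a7, Pdk4, Pygb, Pygm, Ugp2 and Ppp1r3c. A gene was called here with an adjusted p under 0.05 in limma's F test over the 4 region means of log2(value + 1). Without CX 1 the count was 6. The 10 genes make up 34.5% of those tested, against 16.5% of all 13875 genes. Within the set glycogen genes made up the largest part, with 4 of 6 called, compared with 2 of 10 in the upper and 2 of 4 in the lower steps of glycolysis, 1 of 4 lactate genes, 1 of 3 kinases and 0 of 2 glucose transporters. Outside the set this order did not hold. There the same test called 3 of 18 other glycogen genes and 6 of 16 other lactate and pyruvate genes. The 2 glucose transporters had unadjusted p-values of 0.00956 for Slc2a1 and 0.473 for Slc2a3, and DESeq2 called Slc2a1 whereas edgeR called neither. In bulk samples of this kind, fewer cells expressing a gene and less RNA per cell cannot be told apart.

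**Figure D2:**
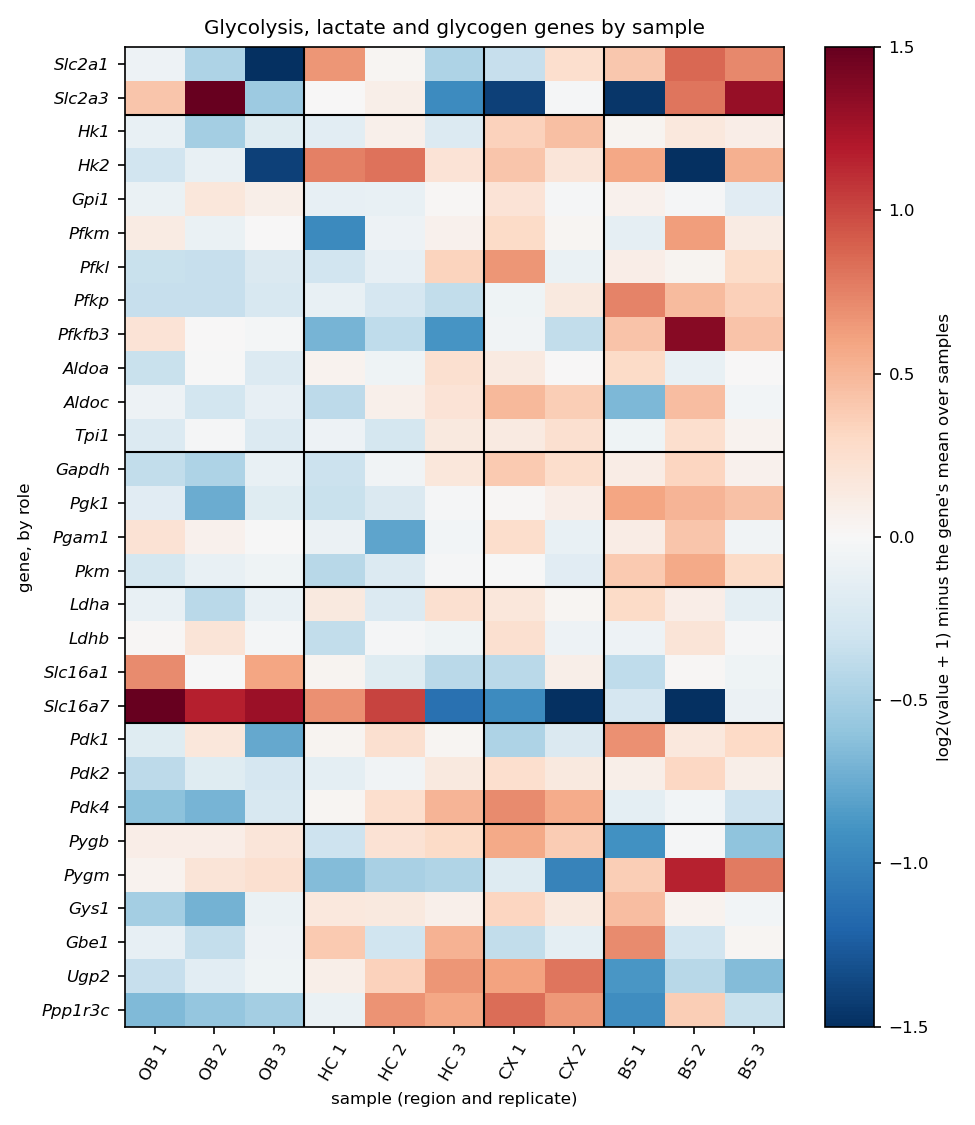
Log2(value + 1) of the 29 tested genes in each of the 11 samples, shown as the difference from the gene's mean over samples, with genes ordered by role and columns grouped by region. Pfkp, Pgk1, Pkm and Pygm were above their mean in all 3 BS samples, and Ugp2 was below its mean there.

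Of the 6 glycogen genes, 3 were called in the BS, 1 higher and 2 lower. Pygm was higher in the BS and its brain counterpart Pygb lower, together with Ugp2, which makes the UDP-glucose that glycogen synthase uses. Pygm (chromosome 19, 6384399 to 6398459 of GRCm38) had normalized values of 709, 778 and 805 for OB 1 to 3, 434, 488 and 501 for HC 1 to 3, 596 and 342 for CX 1 and 2 and 881, 1519 and 1177 for BS 1 to 3. Every BS sample lay above the 8 others, and the OB samples lay above those of the HC and CX. The mean was 1192 ± 319 (SD, n = 3) in the BS, and the log2 difference from the other regions pooled was 1.05 (SE 0.25, adjusted p = 0.0283, limma with Benjamini-Hochberg adjustment). The values of Pygb (chromosome 2, 150786735 to 150831758) were 3498, 3489 and 3696 for OB 1 to 3, 2631, 3773 and 3957 for HC 1 to 3, 4824 and 4236 for CX 1 and 2 and 1727, 3201 and 2147 for BS 1 to 3. Of the BS samples, BS 2 lay within the range of the other regions, whereas both CX samples lay above the 9 others. Its adjusted p among regions was 0.0490 (limma), which rose as far as 0.171 and ended the call when any one of 9 samples was left out. The BS difference of Pygb was -0.70 (SE 0.20, unadjusted p = 0.00387, adjusted p = 0.0599, limma), a call by the unadjusted rule used for single regions and not by the adjusted one. Ugp2 (chromosome 11, 21321138 to 21371201) had values of 1143, 1293 and 1390.3 for OB 1 to 3, 1538, 1843 and 2299 for HC 1 to 3, 2204 and 2533 for CX 1 and 2 and 791, 1082 and 919.8 for BS 1 to 3. All BS samples were below all others, the CX values of 2204 and 2533 were among the 3 highest, and the BS difference was -0.89 (SE 0.24, adjusted p = 0.0420, limma). Without BS 2, Pygm was no longer called (log2 difference 0.86, unadjusted p = 0.0111, limma), and without BS 1, the sample lowest in astrocyte markers, the same held for Ugp2 (-0.78, unadjusted p = 0.0151) and Pygb (-0.50, unadjusted p = 0.0380). Pygb was also lost without BS 3 (-0.66, unadjusted p = 0.0203, limma).

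The remaining glycogen genes differed along other lines. Ppp1r3c, which brings protein phosphatase to glycogen and so favours its synthesis, had values of 1137, 1202 and 1261 for OB 1 to 3, 1670.3, 2871 and 2675 for HC 1 to 3, 3205 and 2823 for CX 1 and 2 and 939.9, 2326 and 1429 for BS 1 to 3. OB values were below every HC and CX value, whereas the BS ranged from below the OB to the level of the HC. Its adjusted p among regions was 0.0159 (limma), which rose to 0.0713 without CX 1. Gys1, glycogen synthase, had values of 137, 119 and 182 for OB 1 to 3, 217, 216 and 206 for HC 1 to 3, 244 and 216 for CX 1 and 2 and 269, 202 and 189 for BS 1 to 3. OB samples were below all 8 others, and the OB difference was -0.60 (SE 0.17, unadjusted p = 0.00379, adjusted p = 0.0688, limma). The branching enzyme Gbe1 ranged from 182 to 385 with overlapping regions (adjusted p among regions 0.532).

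Of the upper steps of glycolysis, Pfkfb3 and Pfkp, which act at the phosphofructokinase step, were higher in the BS. Pfkfb3, whose enzyme makes the strongest activator of phosphofructokinase (chromosome 2, 11471433 to 11554077), had values of 393, 343 and 334 for OB 1 to 3, 209.9, 261 and 184 for HC 1 to 3, 328 and 264 for CX 1 and 2 and 459, 881 and 461 for BS 1 to 3. The 3 BS samples were the highest with BS 2 far above the rest, and the 3 HC samples were the lowest, HC 2 by a narrow margin. The BS mean was 601 ± 243 (SD, n = 3) and that of the HC 218 ± 39.4 (SD, n = 3), and the BS differed from the other regions by a log2 difference of 1.02 (SE 0.26, adjusted p = 0.0330, limma). Without BS 2 this difference was 0.71 with an unadjusted p of 0.0175 and was not called. Pfkp, the platelet type of phosphofructokinase (chromosome 13, 6579768 to 6648777), had values of 420.2, 419 and 450.3 for OB 1 to 3, 494, 446 and 412 for HC 1 to 3, 511 and 589 for CX 1 and 2 and 897, 739 and 684 for BS 1 to 3. Again all BS samples were above the 8 others, with a difference of 0.72 (SE 0.15, adjusted p = 0.0114, limma) that stayed called whichever sample was left out. The other phosphofructokinase genes were not called in the BS. Pfkm, the muscle type, reached 1074 to 1813 in the BS against 607 to 1441 elsewhere, and Pfkl, the liver type, 178 to 210.5 against 137 to 275.

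Aldoc, the gene with the highest level of the set, was not called among regions (adjusted p = 0.613, limma). It had values of 22647, 19694 and 21921 for OB 1 to 3, 18138, 25240.4 and 27426 for HC 1 to 3, 33364 and 30791 for CX 1 and 2 and 14924, 32973 and 23125 for BS 1 to 3. The lowest value was that of BS 1 and one of the highest that of BS 2, so that the spread within the BS covered nearly the whole range. Hexokinase 1, the first enzyme of the pathway in the brain, was highest in the CX, where Hk1 reached 550.3 and 595 against 304 to 485 elsewhere, with an adjusted p among regions of 0.0903. The remaining upper genes were within overlapping ranges. Gpi1 ranged from 1623 to 2103, Aldoa from 1655 to 2550.5, Tpi1 from 546 to 783 and the inducible hexokinase Hk2 from 6.01 to 38.4, with adjusted p-values among regions from 0.514 to 0.854.

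In the lower steps, Pgk1 and Pkm, the 2 enzymes that make ATP, were both highest in the BS. Pgk1 (chromosome X, 106187100 to 106203699) had values of 1174, 790.2 and 1170.5 for OB 1 to 3, 1053, 1139.9 and 1308 for HC 1 to 3, 1346 and 1421 for CX 1 and 2 and 1993, 1893 and 1804 for BS 1 to 3. The 3 BS samples exceeded all others by a clear gap, the log2 difference was 0.71 (SE 0.17, adjusted p = 0.0240, limma), and the call did not depend on any single sample. Pkm (chromosome 9, 59656368 to 59679375) had values of 1226, 1365 and 1402 for OB 1 to 3, 1101, 1279 and 1454 for HC 1 to 3, 1459.9 and 1309 for CX 1 and 2 and 1939, 2188 and 1799.6 for BS 1 to 3. All BS samples were again above the rest, and the difference was 0.58 (SE 0.13, adjusted p = 0.0191, limma), with a fold change that fell just short of the 1.5 required for a call in one region. Among regions Pkm had an adjusted p of 0.0357, which was 0.0504 to 0.0841 when any one of 10 samples was left out and stayed under 0.05 only without HC 3. Gapdh, the lower enzyme with the highest level, had values of 5453, 5118 and 6549 for OB 1 to 3, 5627, 6786 and 7928 for HC 1 to 3, 9239 and 8473 for CX 1 and 2 and 7608, 8785 and 7389.8 for BS 1 to 3. The OB samples were below the CX and BS samples, but the F test did not call it (adjusted p = 0.162). Pgam1 ranged from 1215 to 2799 with an adjusted p of 0.370.

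**Figure D3:**
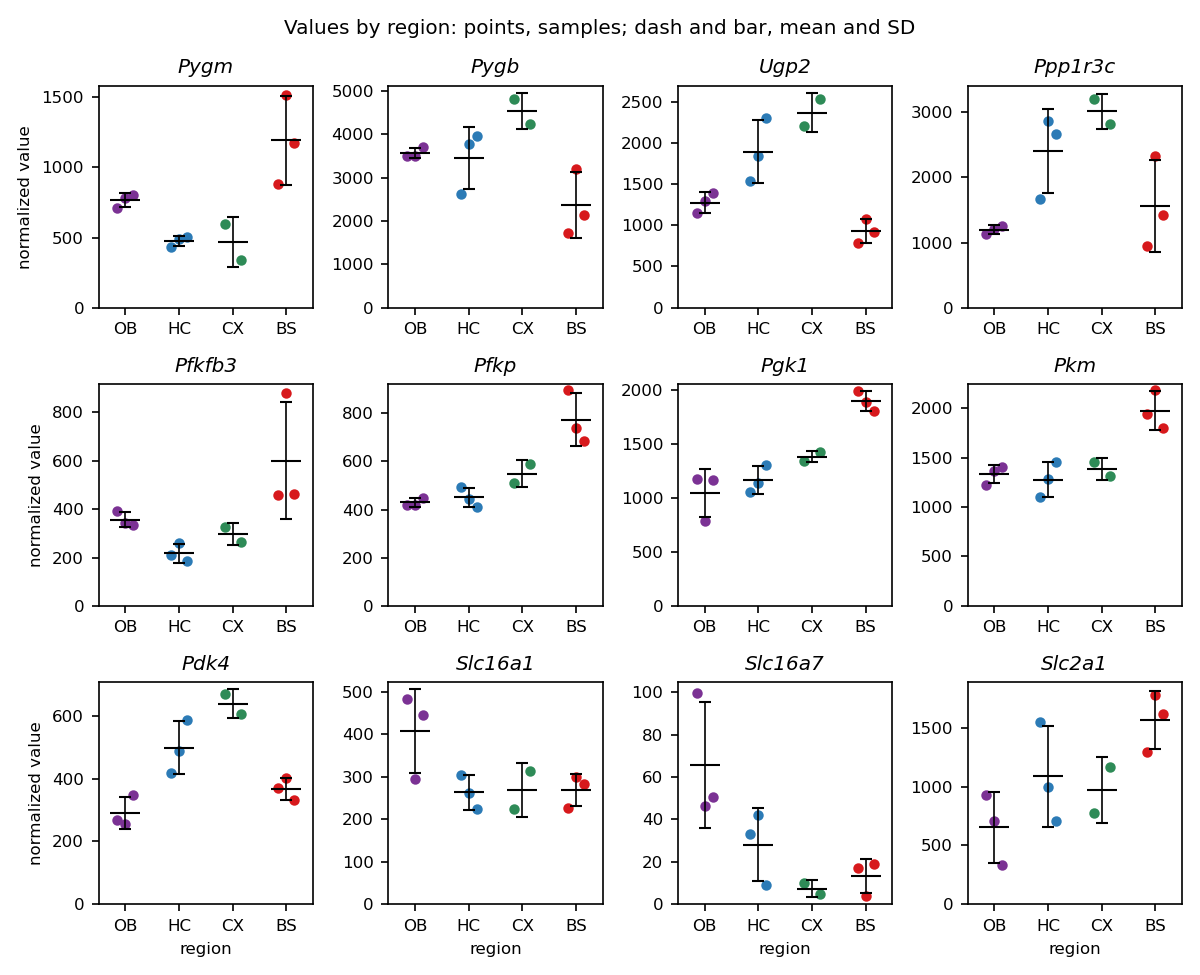
Normalized values of 12 genes by region on linear axes from 0, with a point for each sample and the mean and SD of each region (n = 3, or 2 in the CX). All 3 BS points lie above the 8 others for Pygm, Pfkfb3, Pfkp, Pgk1 and Pkm and below them for Ugp2, and Slc16a7 is highest in the 3 OB samples.

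Among the lactate genes, the transporters Slc16a7 and Slc16a1 were called higher in the OB by the unadjusted rule, and the dehydrogenase subunits were not called in any region. Slc16a7, or MCT2, a transporter with high affinity for lactate that is best known from neurons (chromosome 10, 125219270 to 125389465), had values of 99.9, 46.6 and 50.6 for OB 1 to 3, 33.1, 42.02 and 8.81 for HC 1 to 3, 10.1 and 4.600 for CX 1 and 2 and 16.8, 4.01 and 18.9 for BS 1 to 3. The 3 OB values were the highest, although OB 2 exceeded HC 2 by little, and the value of BS 2 was below the 3-read floor of that sample, 6.01. The log2 difference was 2.15 (SE 0.65, unadjusted p = 0.00531, adjusted p = 0.0840, limma), from 406 reads over all samples, and its adjusted p among regions was 0.0432, which rose to at most 0.175 and lost the call without any one of 8 samples. Slc16a1, or MCT1, the more widely expressed lactate transporter, had values of 482, 294 and 445 for OB 1 to 3, 304, 261 and 223 for HC 1 to 3, 224 and 314 for CX 1 and 2 and 227, 299 and 282 for BS 1 to 3. OB 1 and OB 3 were the highest, and OB 2 lay within the range of the other regions. Its OB difference was 0.59 (SE 0.19, unadjusted p = 0.00678, adjusted p = 0.0962, limma). Leaving out any single OB sample ended the call of Slc16a7 (unadjusted p between 0.0112 and 0.0389), and leaving out OB 1 or OB 3 ended that of Slc16a1 (unadjusted p = 0.0571 and 0.0408), as did leaving out HC 2, HC 3, CX 1 or BS 1 (unadjusted p between 0.0105 and 0.01198, limma). Ldhb, the subunit that favours turning lactate into pyruvate, had values of 3611, 4063 and 3489.9 for OB 1 to 3, 2759.7, 3514 and 3413 for HC 1 to 3, 4184 and 3378 for CX 1 and 2 and 3365, 4055 and 3507 for BS 1 to 3. All regions overlapped (adjusted p = 0.749), as they did for Ldha, which ranged from 699 to 1131 (adjusted p = 0.527).

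The pyruvate dehydrogenase kinases switch off the enzyme complex that carries pyruvate into the citric acid cycle. Pdk4 (chromosome 6, 5483351 to 5496309) had values of 267, 254 and 349 for OB 1 to 3, 419, 489 and 588 for HC 1 to 3, 671 and 607 for CX 1 and 2 and 371, 401 and 330.4 for BS 1 to 3. Both CX samples were the highest of the 11, the OB was at the low end, and only OB 3 reached the range of the BS. Its adjusted p among regions was 0.00466, and its OB difference was -0.71 (SE 0.22, unadjusted p = 0.00615, adjusted p = 0.0914, limma). Pdk2, the kinase with the highest level, had values of 1191, 1374 and 1308 for OB 1 to 3, 1409, 1513 and 1736 for HC 1 to 3, 1863 and 1734 for CX 1 and 2 and 1659, 1931 and 1656 for BS 1 to 3. The OB samples were below all others, with an adjusted p among regions of 0.142. Pdk1 ranged from 113 to 312 (adjusted p = 0.179), and its region order differed, with the highest mean, 255 ± 50.3 (SD, n = 3), found in the BS and the lowest, 153 ± 18.5 (SD, n = 2), found in the CX. Leaving out OB 1, OB 2, HC 2, HC 3 or CX 2 ended the OB call of Pdk4 (unadjusted p between 0.0104 and 0.0354), and leaving out OB 1, OB 2, CX 1 or BS 1 ended that of Gys1 (largest unadjusted p = 0.0320, limma).

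Slc2a1, or GLUT1, the glucose transporter of astrocytes and of the capillary wall, had values of 929.5, 709.7 and 329 for OB 1 to 3, 1554, 1001 and 710.0 for HC 1 to 3, 773 and 1171 for CX 1 and 2 and 1296, 1785 and 1621 for BS 1 to 3. OB and BS samples did not overlap, and the pairwise log2 difference of the OB from the BS was -1.37 (SE 0.34, adjusted p = 0.0125, limma), which rose to an adjusted p of 0.0729 without the mean-variance trend and to 0.0626 without OB 3. The order of the samples within the OB, HC and CX was that of their summed endothelial markers, which were 1276, 809 and 278 in OB 1 to 3, 2678, 1228 and 383 in HC 1 to 3 and 397 and 1424 in CX 1 and 2, while the BS samples had 1245, 1438 and 1720. All 8 endothelial markers were detected. Choroid plexus markers also set the OB (89.2 to 163 in sum) apart from the BS (51687 to 244709). The part of either cell type in the values of Slc2a1 was not tested. Slc2a3 ranged from 8.41 to 86.8 with overlapping regions.

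Each region was then compared with all samples outside it. The thresholds of the study were used, which ask for a fold change above 1.5, an unadjusted p below 0.01 and, in at least 2 replicates of some region, a value above 5. In the BS 6 of 29 genes were called, against 9.03% of all genes. The higher genes were Pygm, Pfkfb3, Pfkp and Pgk1 (3.98% of all genes were called higher) and the lower ones Pygb and Ugp2 (5.05% called lower), and 5 of the 6 had an adjusted p under 0.05. In the OB 4 genes were called, with Slc16a7 and Slc16a1 higher and Pdk4 and Gys1 lower, against 8.04% of all genes (4.15% higher and 3.89% lower). None of the 4 had an adjusted p under 0.05 in limma, whereas 10 of the 29 had an unadjusted p under 0.05, against 2436 of all 13875 genes. In the HC Pfkfb3 alone was called, lower by 0.90 on the log2 scale (SE 0.29, unadjusted p = 0.00828, adjusted p = 0.684, limma), against 1.28% of all genes and 1.00% called lower. In the CX limma called 0 of 29 genes, against 2.77% of all genes, and neither edgeR nor DESeq2 called any. At an unadjusted p under 0.05 in limma were 4 of the 29 (Hk1, Pdk4, Ppp1r3c and Ugp2, all higher), against 1372 of all 13875 genes.

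Single samples carried some of these counts. In the OB all 4 calls were lost without OB 1, and Slc2a1 alone was called instead. Slc16a1 alone was called without OB 2, Gys1 and Pdk4 without OB 3, and Gys1 and Slc16a7 without HC 2. Over all genes the OB count of 1116 fell to 799, 717 and 738 without OB 1, OB 2 and OB 3. Without HC 2 it was 1023. In the HC none was called without OB 1, HC 1, HC 2, HC 3, BS 1 or BS 3. Over all genes these omissions gave HC counts from 110 to 278, against 178 with all samples. In the CX Pdk4 was called without HC 2, and Pdk4 and Ugp2 without HC 3. Over all genes 395 and 464 were called there, against 384 with all samples. Without HC 1 and BS 1, the samples lowest in Aldh1l1, an alternative chosen after seeing the data, 5 genes were called in the BS, where Pygb and Ugp2 were lost and Slc2a1 was gained. In the OB 3 were called, where Gys1 and Slc16a1 were lost and Ppp1r3c was gained, and in the HC 0. Over all 13520 genes then tested, 917 were called in the BS, 1018 in the OB and 148 in the HC.

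Over the 29 genes the median log2 difference was 0.19 in the BS, 0.11 in the CX, -0.05 in the HC and -0.25 in the OB, beside 0.02, -0.03, 0.02 and 0.02 over all genes tested. Positive differences made up 20 of the 29 in the BS and in the CX, 12 in the HC and 10 in the OB, or 69.0%, 69.0%, 41.4% and 34.5%, beside 51.3%, 47.96%, 51.98% and 51.6% of all genes. Scaled to the total reads of each sample instead of the authors' size factors, 2 genes were called higher and 2 lower in the BS, where Pfkp (0.56) and Pgk1 (0.54) fell short of the fold threshold, and in the OB Slc16a7 and Slc16a1 were called higher and none lower. Over all 13875 genes that scaling called 1324 in the BS and 1229 in the OB. Oligodendrocyte markers were highest in the BS and olfactory sensory neuron and neuroblast markers in the OB, with the sums given above. Choroid plexus markers summed to 51687 to 244709 in the BS and 72262 to 146255 in the HC, against 89.2 to 163 in the OB. Astrocyte markers summed to 78363, 244807 and 136866 in BS 1 to 3. The part of these cell types in these calls was not tested.

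**Figure D4:**
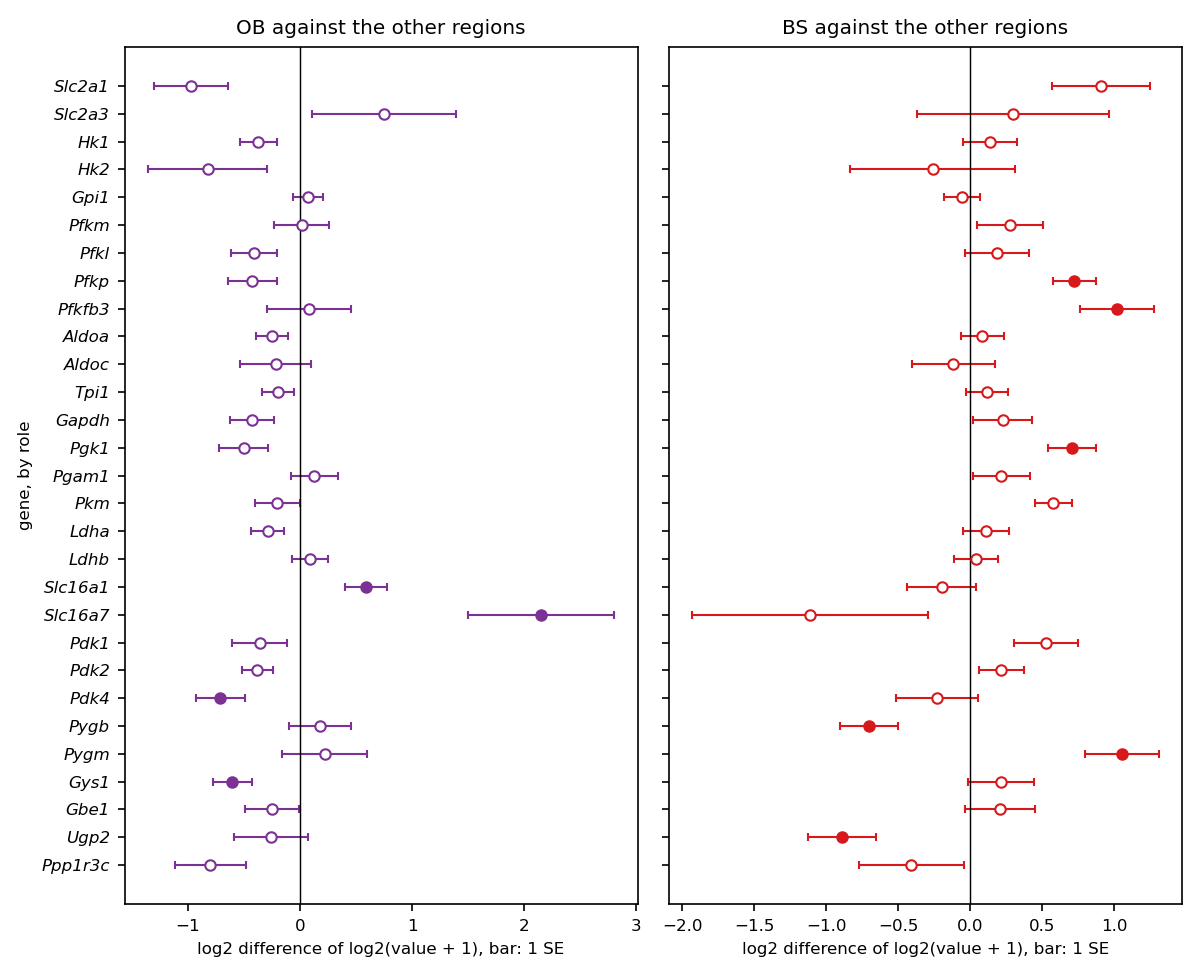
Log2 difference of log2(value + 1) for the 29 tested genes in the OB (left) and in the BS (right), each against the other regions pooled, with bars of 1 SE and filled points for called genes. Pygm at 1.05 and Pfkfb3 at 1.02 were the largest positive BS differences, and Slc16a7 at 2.15 was the largest in the OB.

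Counted without a model, the BS samples lay entirely above the others for Pfkp, Pfkfb3, Pgk1, Pkm and Pygm and entirely below for Ugp2, 6 of 29 genes, against 7.89% of all genes tested. The OB samples lay above all others for Slc16a7 and below for Pdk2 and Gys1, 3 of 29 genes against 8.17% of all genes. Both CX samples were above the rest for Hk1, Pdk4 and Pygb, 3 of 29 genes against 8.17% of all genes, and the HC samples were below the rest for Pfkfb3, 1 of 29 against 1.54%.

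Contrasts between pairs of regions placed the differences more closely. Of 174 combinations of gene and pair, 23 were called with an adjusted p under 0.05 within the pair, or 13.2%, against 7.29% over all genes. The BS took part in 17 of them, or 73.9%, close to the 69.7% of pair calls over all genes. Pygm differed between BS and HC (log2 difference of the HC from the BS -1.30, adjusted p = 0.00243) and between BS and CX (-1.36, adjusted p = 0.00238, limma), but was not called between BS and OB. Ugp2 exceeded its BS level by a log2 difference of 1.02 in the HC and 1.35 in the CX (adjusted p = 0.00348 and 0.000573, limma). Pfkp, Pgk1 and Pkm were called lower than in the BS in the OB and HC and not in the CX, which had 2 samples. With total read scaling all 3 HC calls were lost (adjusted p = 0.0982, 0.129 and 0.142, limma), as was the OB call of Pkm (0.181). With edgeR the HC calls of Pgk1 and Pkm were lost. Rn45s took 0.966 to 2.93% of the reads in the OB and HC and 17.96 to 25.6% in the CX and BS, and its part in these calls was not tested. The remaining BS calls were Slc2a1 and Slc16a7 against the OB and Pdk4, Ppp1r3c and Pygb against the CX. For Pfkfb3 the difference from the BS was -1.40 in the HC and -0.96 in the CX (adjusted p = 0.00281 and 0.0364, limma). The other 6 set the OB against the HC or CX. Pdk4 was lower in the OB than in the HC (-0.78, adjusted p = 0.0178) and CX (-1.15, adjusted p = 0.00445), as was Ppp1r3c (-0.96, adjusted p = 0.0447, and -1.33, adjusted p = 0.0194). In the OB Slc16a7 was also higher (2.997) and Ugp2 lower (-0.89) than in the CX. The CX 2 value of Slc16a7, 4.600, stood at the 3-read floor of that sample. Its call was lost with edgeR (adjusted p = 0.0509), with the smaller pseudocount, with no filter and without OB 1, OB 2, OB 3 or HC 2. That of Ugp2 was lost with total read scaling (-0.42), without the mean-variance trend and without OB 1 or OB 2. Between HC and CX limma called 0 of 29, with 1 at an unadjusted p under 0.05, Hk1, against 1.23% of all genes called in that pair. Of the 23 calls, 6 held whichever sample was left out, those of Pfkp and Pgk1 between OB and BS, of Pfkfb3, Pygm and Ugp2 between HC and BS and of Ugp2 between CX and BS. Without any one of OB 1 to 3 the count was 14, and without CX 1 or CX 2 it was 12.

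Ratios between related enzymes within a sample do not depend on how samples are scaled. The ratio of Pygm to Pygb reads was 0.510, 0.474 and 0.548 in the BS samples, 0.203, 0.223 and 0.218 in the OB, 0.165, 0.129 and 0.127 in the HC and 0.123 and 0.0807 in the CX. The BS samples were well above the 8 others and varied little among themselves, and the OB came next. The ratio of Pdk2 to Pdk4 was 2.78 and 2.86 in the CX, below the 2.95 to 5.40 of the other samples. Ldha to Ldhb ranged from 0.172 to 0.373 and Aldoa to Aldoc from 0.0588 to 0.171, with overlapping regions in both. Regions also overlapped for Slc2a3 to Slc2a1, Hk2 to Hk1, Pfkp to Pfkm, Pfkl to Pfkm and Slc16a1 to Slc16a7. Pfkp to Pfkm was 0.835, 0.408 and 0.535 in BS 1 to 3 and 0.814 in HC 1.

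**Figure D5:**
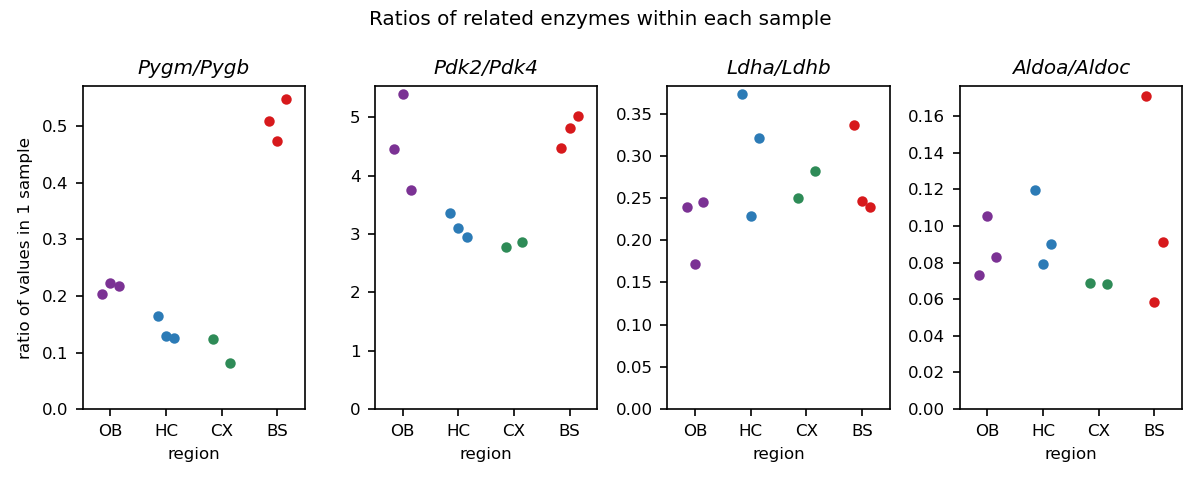
Ratio of the normalized values of related enzymes within each sample, with a point for each of the 11 samples by region on axes from 0. The ratio of Pygm to Pygb was 0.474 to 0.548 in the BS and at most 0.223 in the other samples, and that of Pdk2 to Pdk4 was lowest in the CX.

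Genes outside the set were examined as 7 further lists, called pathway lists here. Those of the oxygen response (8 genes tested) and the dissociation response (12 tested) cover other functions than glucose, lactate and glycogen. The 7 lists held 93 genes, of which 78 were tested. In the BS 6 were called, 3 higher and 3 lower, in the OB 4 (1 higher and 3 lower), in the HC 3 (1 higher and 2 lower) and in the CX 4, all lower. These are 7.69% of the tested genes of the 7 lists in the BS, 5.13% in the OB, 3.85% in the HC and 5.13% in the CX, beside 9.03%, 8.04%, 1.28% and 2.77% of all genes. Among the 4 regions 13 of the 78 were called, or 16.7%, about the 16.5% of all genes. The 13 included 2 of the 8 oxygen response genes and 0 of the 12 dissociation response genes. Of the 17 calls in single regions, 5 held whichever sample was left out, those of Hif1a, Ndrg1, Ppp1r3g and Slc2a13 in the BS and Slc2a12 in the OB. Hif1a, the oxygen-regulated subunit of a transcription factor that drives many glycolytic genes, was the most clearly different in the BS. It had values of 602, 657 and 652 for OB 1 to 3, 958, 696 and 980.4 for HC 1 to 3, 632 and 727 for CX 1 and 2 and 1726, 2789 and 1705 for BS 1 to 3. The lowest BS value was above the highest of the others by a wide gap, and the log2 difference was 1.47 (SE 0.20, adjusted p = 0.000556, limma). Ndrg1, a hypoxia-responsive gene that is also expressed in myelinating glia, was higher by 1.53 (SE 0.34, adjusted p = 0.0180), with 726, 615 and 1039.8 in the BS samples and 172 to 539.7 elsewhere. Oligodendrocyte markers were also highest in the BS, and their part in the values of Ndrg1 was not tested. The other 6 tested genes of the oxygen response list were not called in the BS.

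Ppp1r3g, a glycogen-targeting subunit of protein phosphatase like Ppp1r3c, had values of 19.97, 16.03 and 35.8 in the BS and 51.3 to 251 elsewhere (-2.07, SE 0.44, adjusted p = 0.0141, limma). Slc2a13, a myo-inositol transporter of the glucose transporter family, had 64.1, 74.1 and 44.2 in the BS and 116 to 215 elsewhere (-1.36, SE 0.25, adjusted p = 0.00552). Neither overlapped with the other regions. The remaining BS calls were Eno2, the neuronal enolase, at 0.90 (adjusted p = 0.0913) and Phkg1, a subunit of phosphorylase kinase, at -0.68 (adjusted p = 0.0749). Neither held throughout, since Eno2 was lost when any one of 7 samples was left out and with edgeR, and Phkg1 when HC 2, HC 3, BS 1 or BS 3 was left out, with a log2 difference down to -0.43. Neuron markers moved in the BS in both directions, as given above, and their part in the value of Eno2 was not tested.

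In the OB, Slc2a12, another glucose transporter, had 24.98, 25.3 and 28.01 and in the CX 41.5 and 39.9, against 159 to 491 in the HC and BS. The OB difference was -2.61 (SE 0.67, adjusted p = 0.0394, limma) and the HC difference 2.32 (unadjusted p = 0.00898, adjusted p = 0.698). Emb, a partner protein of lactate transporters, and the monocarboxylate transporter genes Slc16a4 and Slc16a6 were lower in the CX by the unadjusted rule, with adjusted p-values between 0.233 and 0.302. Emb had values of 49.95, 29.2 and 74.3 for OB 1 to 3, 487, 244 and 679 for HC 1 to 3, 25.1 and 4.600 for CX 1 and 2 and 1079, 335 and 514 for BS 1 to 3. Both Slc2a12 and Emb were higher in the HC and BS, the regions with the high choroid plexus sums of 51687 to 244709, and the part of those transcripts was not tested. The other calls were Gyg, the primer protein of glycogen, higher in the OB (0.70) and lower in the HC (-0.66), Pgm2l1 (-1.12) and Phka1 (-0.60) in the OB, Ldhd (-1.05) in the HC and Ppp1r3b (-2.29) in the CX, with adjusted p-values between 0.0666 and 0.673. Leaving out 1 of the 2 CX samples ended each CX call, either one for Slc16a4 and Ppp1r3b, CX 2 for Emb and CX 1 for Slc16a6. The HC calls of Gyg, Ldhd and Slc2a12 were lost without any one of 8, 9 and 7 samples, the OB call of Phka1 without any one of 7, that of Pgm2l1 without OB 1 or OB 3 and that of Gyg without OB 2. Of the 7 pentose phosphate and 12 dissociation response genes limma called 0 in any region on the authors' scaling. This count is for all samples, with the filter on low counts and the other regions pooled. Dissociation genes varied widely within regions. Their summed value was 4741, 3980 and 2194 for OB 1 to 3 and 6879, 1785 and 445 for HC 1 to 3. For CX 1 and 2 it was 1430 and 1955, and for BS 1 to 3 it was 6616, 1136 and 3561. A count of 0 therefore does not show that the regions were alike. At an unadjusted p under 0.05, 1 pentose phosphate gene passed in the OB and 2 in the CX, and 1 dissociation gene in the CX. Of all 13875 genes, 2436 passed in the OB and 1372 in the CX. Rpe, a pentose phosphate enzyme named after its values were seen, was called lower in the CX by DESeq2 (-0.82) and not by edgeR. Limma called Rpe lower there with TMM (-0.82) or total read scaling (-1.17), with no filter (-0.80) and with a mean for each region (-0.80). With a mean for each region, limma also called Rpe higher in the OB (0.64). Without HC 1 and BS 1, the dissociation genes Fos and Jun were called higher in the OB and Dusp1 and Nr4a1 lower in the HC. Nr4a1 was also called lower in the HC without HC 1 alone (-2.38), and Ier2 lower in the CX without HC 3 (-2.12).

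To show the sequence in front of the 6 genes called in the BS, their promoter windows were read from RefSeq for GRCm38.p6, from 250 bases before to 50 after the transcription start. Where several starts were listed, the most upstream is shown. Each is given 5′ to 3′ along the gene's strand, and capitals mark ACGTG or GCGTG on either strand, the core of the element bound by Hif1a and its partner, which overlaps the CACGTG of other factors.
Pygm chr19:6384158-6384457, plus strand: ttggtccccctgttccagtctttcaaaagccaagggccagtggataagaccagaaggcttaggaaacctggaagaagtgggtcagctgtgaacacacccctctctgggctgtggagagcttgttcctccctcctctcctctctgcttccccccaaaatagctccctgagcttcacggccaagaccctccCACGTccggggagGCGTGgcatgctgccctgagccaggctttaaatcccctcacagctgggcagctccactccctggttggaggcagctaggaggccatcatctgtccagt
Pfkfb3 chr2:11553880-11554179, minus strand: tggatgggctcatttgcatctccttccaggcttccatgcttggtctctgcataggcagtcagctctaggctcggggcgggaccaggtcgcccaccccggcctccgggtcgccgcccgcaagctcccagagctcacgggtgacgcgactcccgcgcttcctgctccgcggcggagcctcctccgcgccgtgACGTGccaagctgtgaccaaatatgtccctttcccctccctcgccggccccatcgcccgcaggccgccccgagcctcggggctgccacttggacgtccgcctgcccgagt
Pfkp chr13:6648722-6649021, minus strand: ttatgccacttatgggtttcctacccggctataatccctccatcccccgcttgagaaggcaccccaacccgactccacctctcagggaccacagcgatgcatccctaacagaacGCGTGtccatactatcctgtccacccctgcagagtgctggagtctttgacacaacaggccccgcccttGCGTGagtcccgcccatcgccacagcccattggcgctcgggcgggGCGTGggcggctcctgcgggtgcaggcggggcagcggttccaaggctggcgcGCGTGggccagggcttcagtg
Pgk1 chrX:106186850-106187149, plus strand: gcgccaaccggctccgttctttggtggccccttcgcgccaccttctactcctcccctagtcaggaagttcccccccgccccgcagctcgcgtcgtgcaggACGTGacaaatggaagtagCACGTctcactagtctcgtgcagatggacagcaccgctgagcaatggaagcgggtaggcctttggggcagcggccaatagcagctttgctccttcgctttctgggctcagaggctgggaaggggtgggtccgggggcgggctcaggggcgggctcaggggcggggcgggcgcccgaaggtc
Pygb chr2:150786546-150786845, plus strand: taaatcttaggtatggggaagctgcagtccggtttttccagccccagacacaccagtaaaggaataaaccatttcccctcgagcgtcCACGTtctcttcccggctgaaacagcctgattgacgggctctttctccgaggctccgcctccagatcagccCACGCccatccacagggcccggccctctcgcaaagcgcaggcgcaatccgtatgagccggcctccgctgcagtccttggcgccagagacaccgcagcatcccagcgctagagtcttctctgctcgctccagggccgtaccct
Ugp2 chr11:21371218-21371517, minus strand: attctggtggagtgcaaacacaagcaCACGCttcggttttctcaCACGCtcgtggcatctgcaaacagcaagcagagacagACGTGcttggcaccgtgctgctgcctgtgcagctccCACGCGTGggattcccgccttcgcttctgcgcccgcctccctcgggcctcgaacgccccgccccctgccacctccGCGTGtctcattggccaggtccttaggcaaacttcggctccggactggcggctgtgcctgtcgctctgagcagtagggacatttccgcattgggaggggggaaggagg

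Genes higher and lower in the BS both held these letters, with 2 matches for Pygm, 1 for Pfkfb3, 4 for Pfkp and 2 for Pgk1, and 2 for Pygb and 6 for Ugp2. The windows differed more in their CG content, with 4 CG dinucleotides for Pygm and 21 to 30 for the 5 others. Promoter windows were listed for 29 of the 31 genes, 44 windows in all, and not for Slc2a3 and Slc16a7. Of the 44, 33 (75.0%) held ACGTG or GCGTG on either strand, against 43.8% of all 32851 windows of this length. ACGTG was in 22 of the 44 against 19.6% of all windows, GCGTG in 54.5% against 32.4% and CACGTG in 13.6% against 7.15%. Some of the 29 genes have more than 1 window among the 44. Both ACGTG and GCGTG contain CG, and the comparison with all windows was not matched for CG content or for expression. These are matches of letters and do not show binding.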

How the data were processed

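RNA from the sorted astrocytes was made into libraries with the Trio RNA-Seq System from total RNA. Per the submitters' processing notes, reads were checked with FastQC, mapped to mm10 with STAR 2.5.0a and normalized with DESeq2 1.20.0, after counting on UCSC transcripts per the methods. The deposited signal values are the authors' counts divided by 1 size factor per sample. Dividing by the step of each sample gave whole reads for 100% of the values above 0, within a tolerance of 0.1.

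On the scale log2(value + 1), limma 3.58.1 (R 4.3.3) fitted a trend of variance on mean and gave two-sided tests over the 13875 genes past edgeR's filterByExpr on the recovered reads. Fold changes on this scale understate changes of low genes. Adjusted p-values follow Benjamini and Hochberg over all genes tested. Alternatives were edgeR 4.0.16 and DESeq2 1.42.0 on recovered reads, other scalings, pseudocount and filters, no trend, the adjusted p as call rule, region means in place of pooled samples, a replicate block, and the omission of every sample in turn. The code was tested on simulated data. The assumption that files might hold raw counts was not met, and limma was kept as planned for that case. Coordinates are those of GENCODE for GRCm38 and promoter windows those of RefSeq.

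The genes, pathway lists and marker lists were chosen with earlier results of these data known. A further astrocyte marker was left out and is not reported here. All 31 genes are accounted for, with values in every sample for those called among regions or in a region and for the highest of each role. Of the pathway lists, genes called in a region are named. Floors cover counting error only, whereas each SE and SD measures the spread between samples. Python 3.11.15 with pandas 2.3.3 and matplotlib 3.10.9 made the tables and plots.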

Additional observations from a re-analysis of the deposited data

How the results depend on the processing

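No call changed direction under any alternative run. The 10 genes called among regions became 8 with edgeR, with TMM scaling, with a pseudocount of 0.25 or with no filter, 13 with DESeq2, 11 with total read scaling and 5 without the mean-variance trend, and 6 to 10 when single samples were left out. The 4 OB calls became 2 with total read scaling or without the trend, 6 with DESeq2 or with a mean for each region, 3 with edgeR, 0 by adjusted p and 1 to 4 with single samples left out. The 1 gene called without OB 1 was Slc2a1, which is not among the 4. The 1 HC call became 0 with edgeR, total read scaling, no trend or adjusted p and without the pair of libraries lowest in Aldh1l1, 2 with a mean for each region and 0 to 2 with single samples left out. The 0 CX calls became 1 with total read scaling (Pygm), 4 with a mean for each region (Pdk4, Ppp1r3c, Pygm and Ugp2) and 0 to 2 with single samples left out. The 6 BS calls were the same genes with edgeR and DESeq2, 4 with total read scaling, 5 by adjusted p, 7 with a mean for each region and 4 to 8 with single samples left out. The 23 calls between pairs became 32 with DESeq2, 26 with total read scaling, 19 with edgeR, 18 with no filter, 8 without the trend and 12 to 27 with single samples left out. Over all genes the 178 HC calls became 188 with edgeR, 195 with total read scaling, 185 without the trend and 666 with a mean for each region. The 384 CX calls became 794 with total read scaling and 1071 with a mean for each region. The 1253 BS calls became 1126 with edgeR, 1428 with DESeq2, 1324 with total read scaling and 1960 with a mean for each region. Between OB and BS 2075 became 2435 with DESeq2 and 1540 without the trend. The cause of these changes was not tested.

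With the replicate block 11 genes were called among regions, 23 calls were made between pairs, and single-region calls numbered 2 (OB), 0 (HC), 0 (CX) and 7 (BS). Over all genes the block gave 2327 calls among regions and 1027 (OB), 149 (HC), 308 (CX) and 1144 (BS) in single regions. The 15 pairs of same-numbered samples from different regions had correlations of their deviations between -0.16 and 0.25, and 3 were over 0.1. The 30 pairs with different numbers had -0.22 to 0.18, and 5 were over 0.1. Between OB and HC, same numbers gave 0.195, 0.074 and 0.25, and different numbers -0.22 to 0.03. Same numbers gave 0.11, 0.09 and -0.16 between HC and BS and 0.02, -0.03 and -0.11 between OB and BS. Deviations from means of 2 or 3 samples are not independent, so this check cannot exclude pairing. The numbers were not taken to pair the samples in the main tests.

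Total read scaling moved the median log2 difference of all genes to 0.24 (OB), 0.23 (HC), -0.39 (CX) and -0.15 (BS). With 2 CX samples and a BS library of 2830746 reads, genes such as Slc16a7, at 2 reads in BS 2, are measured with little precision. With 2 or 3 samples per region a single outlying sample could not be flagged.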
